A study of Mus musculus with 18 samples.

Results

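The transcripts examined were those of 8 claudin genes that are expressed in the kidney but do not belong to the claudins usually assigned to the thick ascending limb (TAL). They were *Cldn1*, *Cldn2*, *Cldn4*, *Cldn7*, *Cldn8*, *Cldn12*, *Cldn15* and *Cldn23*, listed by gene name out of the 55401 genes of the deposited tables, by a rule that holds no measured level. RNA was sequenced from 18 pools of hand-dissected tubules, each pool holding 150 to 200 tubules of a distinct mouse, to ask how the loss of *Cldn10* changes the transcriptome of the medullary (MTAL) and the cortical (CTAL) part of the segment. All animals were male mice of mostly C57BL/6 background, 4 to 10 months old, and homozygous for floxed *Cldn10* alleles (Cldn10 fl/fl). The knock-out (cKO) mice also carried Cre, driven by the promoter of Ksp-cadherin and hence active along the distal nephron, and littermates lacking Cre are called wild type (WT) although they carry the floxed alleles. WT CTAL, WT MTAL and cKO CTAL had 5 pools each, and cKO MTAL had 3. The outer medulla of the cKO kidneys holds calcium deposits, which made MTAL difficult to dissect.

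Claudins are membrane proteins that bridge neighbouring epithelial cells at the tight junction. Some of them form pores through which ions pass between the cells, and others seal this path. In the TAL the pore of claudin-10 carries sodium and that of claudin-16 with claudin-19 carries calcium and magnesium. The claudins considered here are known from other places. Claudin-8, claudin-7 and claudin-4 belong to the collecting system and the distal nephron, where claudin-8 recruits claudin-4 to the junction, and claudin-2 forms the cation and water pore of the proximal tubule. Claudin-1 is a sealing claudin of the epidermis and of the parietal cells of the glomerulus. Claudin-12 takes part in calcium permeability, claudin-15 is a cation pore of the intestine, and claudin-23 is known from the intestine.

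The sequences shown here are the 250 bases before the transcription start of the 3 claudin genes with the largest log2 fold changes between cKO MTAL and WT MTAL, taken from RefSeq on the GRCm38.p6 build and written 5′ to 3′ on the strand of the gene. Capitals mark matches, on either strand, to 4 motifs that were chosen with the results known: the GC box (CCGCCC), the TATA box (TATAAA), the AP-1 element (TGANTCA) and the core of the Grainyhead-like factors of epithelia (AACNNGTT). No matches overlapped in these windows. The first lies at chr16:26371840-26372089 on the minus strand, the second at chr5:134946935-134947184 on the minus strand and the third at chrX:139800558-139800807 on the plus strand.
Cldn1: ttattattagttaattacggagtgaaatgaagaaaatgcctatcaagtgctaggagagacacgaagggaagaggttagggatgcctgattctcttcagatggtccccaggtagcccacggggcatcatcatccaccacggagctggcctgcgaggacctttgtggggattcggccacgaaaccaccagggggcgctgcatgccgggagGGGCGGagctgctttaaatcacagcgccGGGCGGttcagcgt
Cldn4: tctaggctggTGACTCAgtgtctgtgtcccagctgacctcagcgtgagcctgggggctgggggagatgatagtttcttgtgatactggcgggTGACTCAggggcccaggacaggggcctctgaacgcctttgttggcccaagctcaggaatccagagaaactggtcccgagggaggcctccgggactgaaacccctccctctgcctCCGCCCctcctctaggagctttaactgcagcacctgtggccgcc
Cldn2: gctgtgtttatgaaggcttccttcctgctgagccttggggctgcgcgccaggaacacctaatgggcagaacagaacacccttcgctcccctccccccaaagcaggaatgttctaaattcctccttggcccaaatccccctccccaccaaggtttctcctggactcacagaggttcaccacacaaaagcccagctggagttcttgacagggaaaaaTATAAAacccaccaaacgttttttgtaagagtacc
The window of *Cldn1* held 2 GC boxes, that of *Cldn4* held 1 GC box and 2 AP-1 elements, and that of *Cldn2* held 1 TATA box. Of 32851 such windows of all genes, 32.7% held a GC box, 12.4% a TATA box, 6.75% an AP-1 element and 3.64% the Grainyhead-like core. The *Cldn1* window had 14 CpG dinucleotides, against 7 for *Cldn4*, 4 for *Cldn2* and a median of 6 over all windows. Windows were found for 6 of the 8 genes, and the genes without one are *Cldn8* and *Cldn23*.

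On the GRCm38 (mm10) build all 8 genes have an entry in GENCODE, and none overlaps another annotated gene. *Cldn4* (ENSMUSG00000047501, chromosome 5 from 134945119 to 134946934) and *Cldn8* (ENSMUSG00000050520, chromosome 16 from 88560828 to 88563183) consist of a single exon. *Cldn1* (ENSMUSG00000022512, chromosome 16 from 26356642 to 26371841) is a neighbour of *Cldn16*, which starts 91.3 kb away. The others are *Cldn2* (ENSMUSG00000047230, chromosome X from 139800828 to 139811386), *Cldn7* (ENSMUSG00000018569, chromosome 11 from 69964779 to 69967885), *Cldn12* (ENSMUSG00000046798, chromosome 5 from 5489537 to 5514958), *Cldn15* (ENSMUSG00000001739, chromosome 5 from 136966616 to 136975858) and *Cldn23* (ENSMUSG00000055976, chromosome 8 from 35824712 to 35826559).

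The counts of a pool summed to between 10824299 and 62339939. *Slc12a1*, the sodium transporter that defines the TAL, was at 11416 CPM (counts scaled to a common library total) or more in every pool. *Cldn10* ranged from 383 to 823 CPM in WT pools and from 151 to 283 CPM in cKO pools, so that transcripts of it were left in all 8 cKO pools. The study retained only cKO pools with lower *Cldn10* than in WT, so that the gap between these ranges rests in part on selection. WT CTAL replicate 1 carries the knock-out genotype in its label but is named WT, and was used as WT. *Xist*, the transcript of the inactive X chromosome of females, was between 0.467 and 1.58 TPM (a value corrected for transcript length and library total) in 4 of 5 WT MTAL, 2 of 5 WT CTAL and 1 of 5 cKO CTAL pools and at most 0.067 TPM in the other pools, which include all 3 of cKO MTAL. The Y-linked *Ddx3y* was present in all 18 pools, at 9.18 TPM or more, and the animals are labelled male. Nothing in the labels names separate batches.

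On the TPM scale, which allows levels of different genes to be compared, *Cldn8* was the highest of the 8 genes in each group. Its median was 86.9 TPM in WT CTAL, 60.5 TPM in WT MTAL, 113 TPM in cKO CTAL and 96.5 TPM in cKO MTAL. *Cldn7* followed with medians of 47.8, 32.3, 59.5 and 57.5 TPM in the same order, and *Cldn12* with 20.1, 20.3, 18.6 and 21.97 TPM. The ranges of these 3 genes did not touch in any group except WT MTAL, where *Cldn8* and *Cldn7* overlapped, as did *Cldn7* and *Cldn12*. *Cldn15*, *Cldn2*, *Cldn4* and *Cldn1* had medians between 1.07 and 7.41 TPM. The order among these low genes was not fixed. In WT CTAL and cKO CTAL neighbours in their order overlapped throughout. In WT MTAL *Cldn15* (median 5.32 TPM) stood above the ranges of *Cldn4* and *Cldn1*, and in cKO MTAL it was the lowest of them (median 4.42 TPM), below the range of *Cldn1* (median 6.998 TPM). *Cldn23* had no more than 7 counts in a pool.

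**Figure D1:**
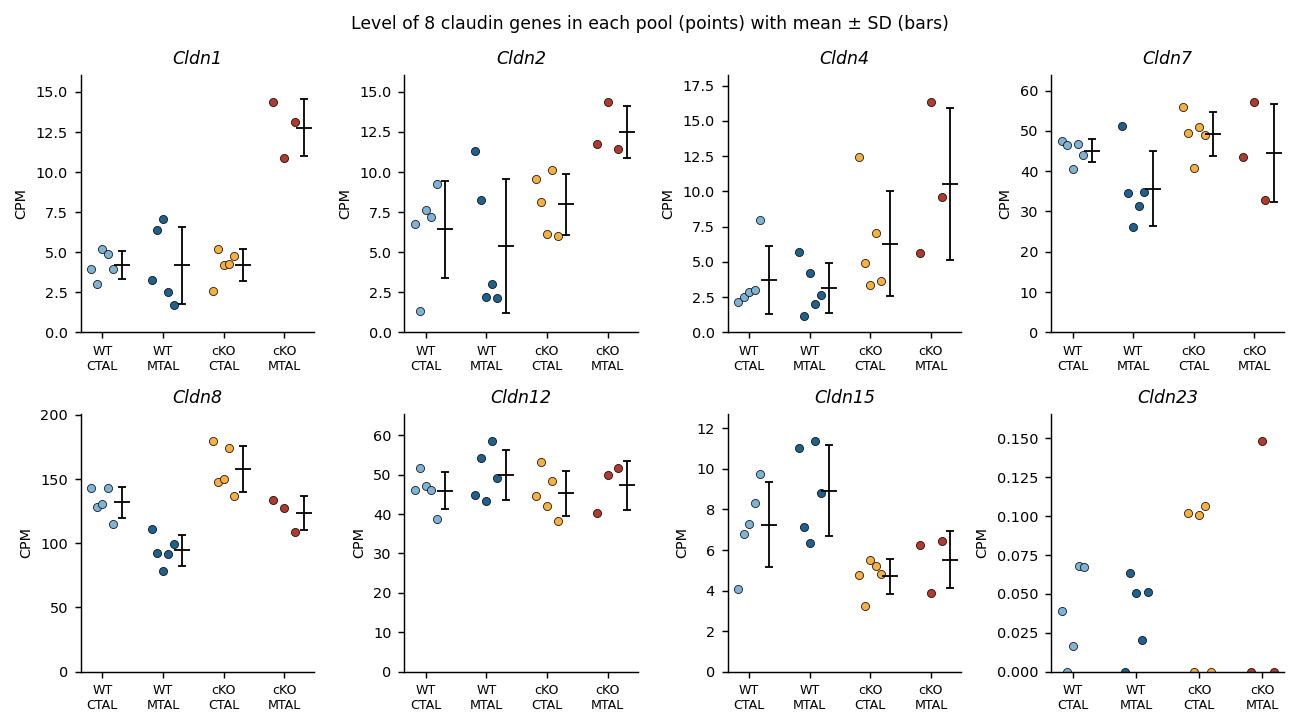
Level of each gene in CPM (linear axis from 0) in each of the 18 pools, grouped by genotype and segment. Points are pools, and bars show the mean with 1 SD, left out for Cldn23. Cldn1 stood higher in the 3 cKO MTAL pools (10.9 to 14.4 CPM) than in all other pools (1.68 to 7.05 CPM), whereas the 4 groups overlapped for Cldn12 (38.3 to 58.4 CPM).

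The first question was which of these claudins differed between cKO MTAL and WT MTAL. *Cldn1* and *Cldn4* rose, while the abundant *Cldn8*, *Cldn7* and *Cldn12* and the low *Cldn2* and *Cldn15* did not pass the test. A gene was tested if it reached 3 CPM in 3 or more pools and was called differentially expressed where the adjusted p was under 0.05 and the log2 fold change was 1 or more in size. Of the 8 genes 7 were tested, and 2 were differentially expressed, both higher in cKO MTAL. Among all 12060 genes tested the share was 3.74%, and 2.69% in this direction. The adjusted p alone was passed by 7.01% of all genes. The median log2 fold change was 0.44 over the 7 claudins and 0.00 over all genes tested.

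Values of a group are listed in the order of its replicate numbers. *Cldn1* was at 3.28, 6.42, 7.05, 2.53 and 1.68 CPM in WT MTAL and at 14.4, 10.9 and 13.1 CPM in cKO MTAL. Each cKO pool lay above each WT pool, and the WT pools themselves spanned a range of 4.196 times. In edgeR's quasi-likelihood test the level rose 3.14-fold, or by 1.65 ± 0.43 (SE) on the log2 scale (adjusted p = 0.0298), and the exact Mann-Whitney p was 0.0357, the smallest that 3 pools against 5 can give. Groups that do not overlap in this direction were found in 5.61% of all genes tested. The call was not stable: with 1 pool left out the adjusted p stayed under 0.05 in 3 of 8 fits and reached 0.0860 without cKO MTAL replicate 16, and in a fit with a term for the pools with *Xist* the log2 fold change was 1.16 (adjusted p = 0.0712).

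*Cldn4* was at 5.69, 1.18, 4.18, 2.02 and 2.65 CPM in WT MTAL and at 5.63, 16.3 and 9.62 CPM in cKO MTAL. The lowest cKO pool, replicate 16, lay just below the highest WT pool, replicate 11, and replicate 18 was the highest of all pools. The rise was 3.49-fold, or 1.80 ± 0.48 (SE) on the log2 scale (adjusted p = 0.0339, edgeR quasi-likelihood test). The exact Mann-Whitney p was 0.0714 on CPM and 0.0357 on TPM. With 1 pool left out the adjusted p stayed under 0.05 in 2 of 8 fits and reached 0.135 without cKO MTAL replicate 18, whereas with the *Xist* term the log2 fold change was 2.91 (adjusted p = 0.000787).

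Markers of other cells and of injury differed along with these genes. The summed level of 6 injury markers was between 33.2 and 45.2 CPM in WT MTAL and at 79.7, 315 and 79.7 CPM in cKO MTAL (replicates 16, 18 and 20), and all 6 were detected in the cKO pools. Of the 6 only 3 were tested, and 1 passed. This was *Lcn2*, a secreted injury protein, which rose by a log2 fold change of 3.44 (adjusted p = 0.00135, edgeR quasi-likelihood test). *Lcn2* was at 21.1 to 282 CPM in cKO MTAL (median 45.0 CPM) against 6.57 to 13.8 CPM in WT MTAL, and made up most of the sum in replicate 18. *Vcam1* had a lower median in cKO MTAL (4.59 against 5.80 CPM), and the other injury markers had a higher one. The sum of 5 proximal tubule markers lay between 13.03 and 26.1 CPM in WT MTAL and was 15.8, 67.6 and 61.2 CPM in cKO MTAL, where *Slc34a1*, a phosphate transporter, rose by 2.39 on the log2 scale (adjusted p = 0.00657). *Cldn4* was highest in the pool with the highest proximal tubule sum in all 4 groups, which are WT CTAL replicate 22 (57.9 CPM), WT MTAL replicate 11 (26.1 CPM), cKO CTAL replicate 2 (65.4 CPM) and cKO MTAL replicate 18 (67.6 CPM). The same 4 pools also had the highest sum of 4 distal convoluted tubule markers of their group, 3 of them had that of the injury and 3 that of the intercalated cell markers, and for the other 8 of the 12 lists examined it was 1 or 2 of them. In cKO MTAL replicate 16, with 15.8 CPM of proximal tubule markers, *Cldn4* was at 5.63 CPM and *Cldn1* at 14.4 CPM. The sum of 5 TAL markers was higher in cKO MTAL, at 67070 to 77538 CPM against 49562 to 62331 CPM, and *Umod*, the gene of the secreted TAL protein uromodulin, rose by 0.67 (adjusted p = 0.00223) and is the largest term of the sum. *Slc12a1*, by contrast, was at 11416 to 14338 CPM in cKO MTAL against 14666 to 16187 CPM in WT MTAL, but the groups overlapped in TPM (3759 to 5120 against 3843 to 5186 TPM), and it did not pass the test. The sum for intercalated cells was 46.9, 81.7 and 297 CPM in cKO MTAL against 22.7 to 116 CPM in WT MTAL, so that only replicate 20 lay above the WT range. Of its 6 markers tested 2 rose, *Slc4a9* (log2 fold change 3.37, adjusted p = 0.000223) and *Atp6v0d2* (1.86, adjusted p = 0.0381). The medians of *Aqp6* (8.83 against 14.2 CPM), *Slc4a1* and *Atp6v1g3* were lower in cKO MTAL, and those of the other intercalated cell markers were higher. The thin limb sum was 83.2 to 116 CPM against 107 to 198 CPM, and the urea transporter gene *Slc14a2* fell by 1.90 (adjusted p = 0.00415). No marker of the distal convoluted tubule reached the filter (sums of 6.03 to 9.18 CPM against 3.08 to 7.92 CPM), and none passed the test for immune cells (110 to 128 against 88.9 to 134 CPM), fibroblasts (23.2 to 39.5 against 20.97 to 38.4 CPM), podocytes (3.59 to 12.4 against 5.45 to 12.7 CPM) or urothelium (2.32 to 9.03 against 4.68 to 7.39 CPM). The part of other cells in these differences was not tested.

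*Cldn2* was at 11.3, 8.28, 2.22, 3.002 and 2.14 CPM in WT MTAL and at 11.8, 14.4 and 11.4 CPM in cKO MTAL. The cKO pools lay above all WT pools, but the WT pools fell into high values in replicates 11 and 13 and low values in the other 3 pools. The log2 fold change of 1.27 (standard error 0.49) had an adjusted p of 0.127 in edgeR's quasi-likelihood test and an exact Mann-Whitney p of 0.0357. With 1 pool left out it passed in 1 of 8 fits, that without WT MTAL replicate 11 (log2 fold change 1.71, adjusted p = 0.0451), and the log2 fold change went down to 1.07 and the adjusted p up to 0.239. *Cldn2* was highest in the pool with the highest proximal tubule sum in 3 of the 4 groups, and likewise for the distal convoluted tubule and urothelium sums.

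*Cldn8* was at 111, 92.7, 78.1, 91.4 and 99.7 CPM in WT MTAL and at 134, 127 and 109 CPM in cKO MTAL. Of the cKO pools only replicate 20 fell within the WT range. The log2 fold change of 0.44 (standard error 0.13), or 1.35-fold, lay next to the threshold with an adjusted p of 0.0509 in edgeR's quasi-likelihood test. It passed in edgeR's likelihood ratio test (adjusted p = 0.0309) and in that of DESeq2 (adjusted p = 0.0249), in limma on log2(TPM + 1) and log2(TPM + 0.1) (adjusted p = 0.0469 and 0.0491) and in 1 fit of all 18 pools (adjusted p = 0.0124). It did not pass without a filter (adjusted p = 0.148), with a filter at 1 CPM (0.0651), with DESeq2's size factors (0.0518) or with the *Xist* term (0.0594), and with 1 pool left out it passed in 2 of 8 fits (adjusted p up to 0.174). The exact Mann-Whitney p was 0.0714 on CPM and 0.0357 on TPM. *Cldn7* was at 44.5 ± 12.1 CPM (SD, n = 3) in cKO MTAL and 35.7 ± 9.35 CPM (SD, n = 5) in WT MTAL, with an adjusted p of 0.313. cKO MTAL replicate 20, in which the sum of 8 principal cell markers was 1004.5 CPM against at most 339 CPM in every other pool, had the lowest *Cldn7* of its group (32.9 CPM) and the lowest *Cldn8*. On TPM its *Cldn8* was again the lowest (91.7 TPM). Its *Cldn7* (57.5 TPM) then lay between those of replicates 16 (49.99 TPM) and 18 (66.0 TPM).

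*Cldn15* was at 11.03, 7.14, 6.34, 11.4 and 8.81 CPM in WT MTAL and at 6.27, 3.90 and 6.43 CPM in cKO MTAL. The groups overlapped only through the lowest WT pool. Its log2 fold change of −0.64 ± 0.34 (SE) did not pass (adjusted p = 0.282). Next to it, the sum of 7 endothelial markers was between 271 and 429 CPM in WT MTAL and between 155 and 251 CPM in cKO MTAL, and 4 of the 7 fell, among them *Cdh5*, the cadherin of endothelial junctions (log2 fold change −1.34, adjusted p = 0.000447, edgeR quasi-likelihood test). *Cldn12* differed least, with 49.97 ± 6.36 CPM (SD, n = 5) for WT MTAL, 47.3 ± 6.20 CPM (SD, n = 3) for cKO MTAL and a log2 fold change of −0.03 ± 0.15 (SE, adjusted p = 0.927). In tubule pools, fewer cells of a type and less RNA per cell cannot be told apart.

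**Figure D2:**
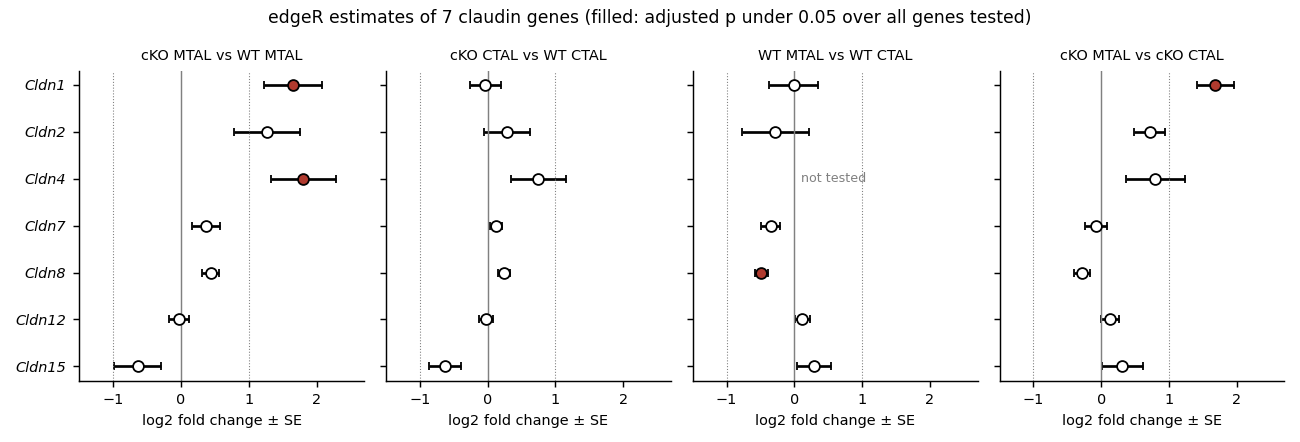
Log2 fold change with 1 standard error from edgeR for 7 claudin genes in 4 comparisons of groups. Filled points have an adjusted p under 0.05 over all genes tested and dotted lines mark a change of 1. Cldn1 is filled at 1.65 and 1.68 in the comparisons of cKO MTAL with WT MTAL and with cKO CTAL, Cldn4 at 1.80 in the first, and Cldn8 at −0.49 between the WT segments.

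In CTAL, where the same deletion was examined, none of the 7 genes tested (3 CPM in 5 or more pools) was differentially expressed, and none passed the adjusted p in edgeR's quasi-likelihood test, in edgeR's or DESeq2's likelihood ratio test or in limma. Among all 11702 genes tested 0.470% were differentially expressed and 1.22% passed the adjusted p. At an unadjusted p under 0.05 there were 2, *Cldn8* and *Cldn15*, as were 11.8% of all genes tested. The median log2 fold change was 0.12 over the 7 claudins and 0.00 over all genes.

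*Cldn8* was at 143, 128, 130, 143 and 115 CPM in WT CTAL and at 179, 148, 150, 174 and 137 CPM in cKO CTAL. Only cKO replicate 21 lay within the WT range. With 1.19-fold, or 0.25 ± 0.09 (SE) on the log2 scale, the difference did not pass (adjusted p = 0.261, edgeR quasi-likelihood test), and the exact Mann-Whitney p was 0.0317 on CPM. On TPM the groups did not overlap, with 81.4 to 101.3 TPM in WT CTAL and 105 to 139 TPM in cKO CTAL (exact Mann-Whitney p = 0.00794, the smallest for 5 pools against 5), as was found in this direction for 4.48% of all genes tested. The cKO pools highest in *Cldn8*, replicates 2 and 9, had principal cell sums of 298 and 312 CPM, against 76.5 to 153 CPM in the others. Their intercalated cell sums were 211 and 176 CPM, against 56.3 to 72.7 CPM. Of 8 intercalated cell markers tested in CTAL 1 passed, *Atp6v0d2* (log2 fold change 1.66, adjusted p = 0.0152, edgeR quasi-likelihood test). The part of these cells in the level of *Cldn8* was not tested.

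*Cldn15* was at 4.09, 6.78, 7.30, 8.33 and 9.74 CPM in WT CTAL and at 4.78, 3.26, 5.51, 5.19 and 4.80 CPM in cKO CTAL. The lowest WT pool, replicate 1, fell within the cKO range. The log2 fold change of −0.63 ± 0.23 (SE, adjusted p = 0.273) was close to that in MTAL, and the sum of the endothelial markers was again lower in cKO pools, at 194 to 285 CPM against 230 to 507 CPM, although none of the 7 markers passed the test in CTAL. WT CTAL replicate 1, which carries the knock-out label, had the lowest endothelial sum of its group. Within cKO CTAL the order was the reverse for replicate 4, which had the lowest *Cldn15* (3.26 CPM) and the highest endothelial sum (285 CPM). *Cldn15* was highest in the pool with the highest endothelial sum in 1 of the 4 groups, cKO MTAL.

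*Cldn4* was at 2.18, 2.54, 2.90, 3.02 and 7.98 CPM in WT CTAL, the last in replicate 22, and at 12.4, 4.92, 3.38, 7.08 and 3.65 CPM in cKO CTAL, the first in replicate 2. In each group 1 pool stood above the others. Between the genotypes *Cldn4* differed by 0.75 ± 0.40 (SE) on the log2 scale (adjusted p = 0.511), and by 0.35 without cKO CTAL replicate 2 (adjusted p = 0.825) and 1.23 without WT CTAL replicate 22 (adjusted p = 0.166). In cKO CTAL replicate 2 the injury sum was 115 CPM, against 28.5 to 54.2 CPM in the other cKO CTAL pools. This pool also had the highest sums of its group for proximal tubule (65.4 CPM), distal convoluted tubule (98.9 CPM) and intercalated cell markers (211 CPM). The same held for thin limb (37.2 CPM) and fibroblast markers (48.2 CPM).

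*Cldn1* had 4.204 ± 0.871 CPM (SD, n = 5) for WT CTAL, against 4.198 ± 0.980 CPM (SD, n = 5) for cKO CTAL. Its log2 fold change of −0.03 (standard error 0.23) compares with 1.65 in MTAL. The estimated genotype effect was larger in MTAL by 1.66 ± 0.49 (SE, unadjusted p = 0.00278), but this difference did not pass the adjusted threshold (adjusted p = 0.107, edgeR quasi-likelihood test of the interaction over 12586 genes). It passed in edgeR's likelihood ratio test (adjusted p = 0.0437), in which 337 genes passed against 36. It did not pass with DESeq2's size factors (0.0988), a filter at 1 CPM (0.106), no filter (0.150), limma on log2(TPM + 1) (0.195) or the *Xist* term (0.194). With 1 pool left out it passed in 0 of 18 fits (adjusted p of 0.0595 to 0.205). For the 6 other claudins tested the adjusted p of this difference was 0.492 or more, and 0.286% of all genes passed. *Cldn2*, *Cldn7* and *Cldn12* had log2 fold changes of 0.28, 0.12 and −0.03 between cKO CTAL and WT CTAL, all with an adjusted p of 0.672 or more.

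Between the WT segments, *Cldn8* was lower in MTAL. It had 132 ± 11.9 CPM (SD, n = 5) for WT CTAL, against 94.5 ± 12.0 CPM (SD, n = 5) for WT MTAL, and the highest MTAL pool (111 CPM) lay below the lowest CTAL pool (115 CPM), as was the case for 4.09% of all genes tested. In edgeR's quasi-likelihood test it fell by 0.49 ± 0.10 (SE) on the log2 scale (adjusted p = 0.00346), a level 0.711 times that of CTAL, and the exact Mann-Whitney p was 0.00794. The adjusted p stayed under 0.05 in all 10 fits that left out 1 pool, with 0.0137 as the highest value. *Cldn8* was the only one of the 6 claudins tested here to pass the adjusted p, which 6.87% of all 11650 genes did and 4.10% in this direction, and none reached a log2 fold change of 1, against 2.32% of all genes at both thresholds. The sum of 5 TAL markers was also lower in WT MTAL, at 49562 to 62331 CPM against 83991 to 94927 CPM in WT CTAL, and 2 of these markers fell, *Umod* and *Egf*, whereas *Slc12a1* was at 14666 to 16187 CPM in WT MTAL and 13531 to 15191 CPM in WT CTAL. The sum of 4 thin limb markers was 107 to 198 CPM against 23.9 to 140 CPM, and its water channel gene *Aqp1* rose by 1.501 (adjusted p = 0.00988). Of the collecting system, where claudin-8 is known, the principal cell sum had a median of 83.4 CPM in WT MTAL (54.1 to 339 CPM) and 199 CPM in WT CTAL (118 to 236 CPM), and of the 7 markers tested the sodium channel gene *Scnn1b* fell by 1.10 (adjusted p = 0.0431). The intercalated cell sum had a median of 40.3 CPM in WT MTAL (22.7 to 116 CPM) and 67.8 CPM in WT CTAL (58.1 to 80.4 CPM), and of the 6 markers tested *Slc4a9* fell by 1.54 (adjusted p = 0.00267). The distal convoluted tubule sum had a median of 5.29 CPM in WT MTAL (3.08 to 7.92 CPM) and 17.1 CPM in WT CTAL (6.10 to 32.8 CPM), and none of its markers reached the filter. The immune cell sum was 88.9 to 134 CPM against 136 to 181 CPM, and *Cd74* (−0.65, adjusted p = 0.00852) and *C1qa* (−0.97, adjusted p = 0.0234) fell. The part of the collecting system, of other segments and of other cells in the level of *Cldn8* was not tested.

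*Cldn7* was at 51.2 CPM in WT MTAL replicate 11 and between 26.2 and 34.9 CPM in the other WT MTAL pools, against 40.6 to 47.6 CPM in WT CTAL. The log2 fold change of −0.35 (standard error 0.14) did not pass the test (adjusted p = 0.182, edgeR quasi-likelihood test), and without that replicate it was −0.51 with an adjusted p of 0.00983. *Cldn4* did not reach the filter in this comparison, with 0.690 as exact Mann-Whitney p. *Cldn1*, *Cldn2*, *Cldn12* and *Cldn15* had log2 fold changes of −0.01, −0.28, 0.12 and 0.29 (adjusted p of 0.595 or more).

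Within the cKO mice, *Cldn1* was higher in MTAL than in CTAL and was the only 1 of 7 claudins tested that was differentially expressed, against 0.938% of all 12044 genes and 0.623% in this direction. Its values of 14.4, 10.9 and 13.1 CPM in cKO MTAL compare with 2.59, 5.18, 4.19, 4.28 and 4.75 CPM in cKO CTAL. This was a rise of 3.21-fold, or 1.68 ± 0.27 (SE) on the log2 scale (adjusted p = 0.00838, edgeR quasi-likelihood test). This call held in all 8 fits that left out 1 pool (adjusted p up to 0.0402) and with the *Xist* term (adjusted p = 0.0105), and was lost with limma on log2(TPM + 0.1) (adjusted p = 0.0519). This comparison shares its 3 cKO MTAL pools with that of the genotypes in MTAL. Markers moved here too. Of 4 thin limb markers 3 rose, *Aqp1* by 2.21 (adjusted p = 0.00146), *Slc14a2* by 2.002 (adjusted p = 0.00904) and *Bst1* by 1.87 (adjusted p = 0.0125), and their sum was 83.2 to 116 CPM in cKO MTAL against 15.6 to 37.2 CPM in cKO CTAL. *Egf* fell by 0.93 (adjusted p = 0.0247) and the immune gene *Cd74* by 0.64 (adjusted p = 0.0418). The injury sum was 79.7 to 315 CPM in cKO MTAL against 28.5 to 115 CPM in cKO CTAL (median 31.3 CPM), with no marker past the test. The part of these cells in the level of *Cldn1* was not tested. *Cldn2* did not overlap either, with values of 6.00 to 10.1 CPM in cKO CTAL against 11.4 to 14.4 CPM in cKO MTAL (log2 fold change 0.71, adjusted p = 0.135), and *Cldn8* was below each cKO CTAL pool in each cKO MTAL pool (log2 fold change −0.28, adjusted p = 0.220). Of all genes tested 3.49% did not overlap with cKO MTAL higher and 7.28% with cKO MTAL lower. *Cldn4*, *Cldn7*, *Cldn12* and *Cldn15* overlapped, with an adjusted p of 0.374 or more.

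*Cldn23* had counts in 12 of the 18 pools and a count of 0 in 6, and its highest level was 0.148 CPM. A count of 0 allows a level of up to 3 counts, which is between 0.135 and 0.277 CPM over the pools with a count of 0 and covers counting error only. It passed no filter except the fits without one, and no difference between groups was detectable at this depth.

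**Figure D3:**
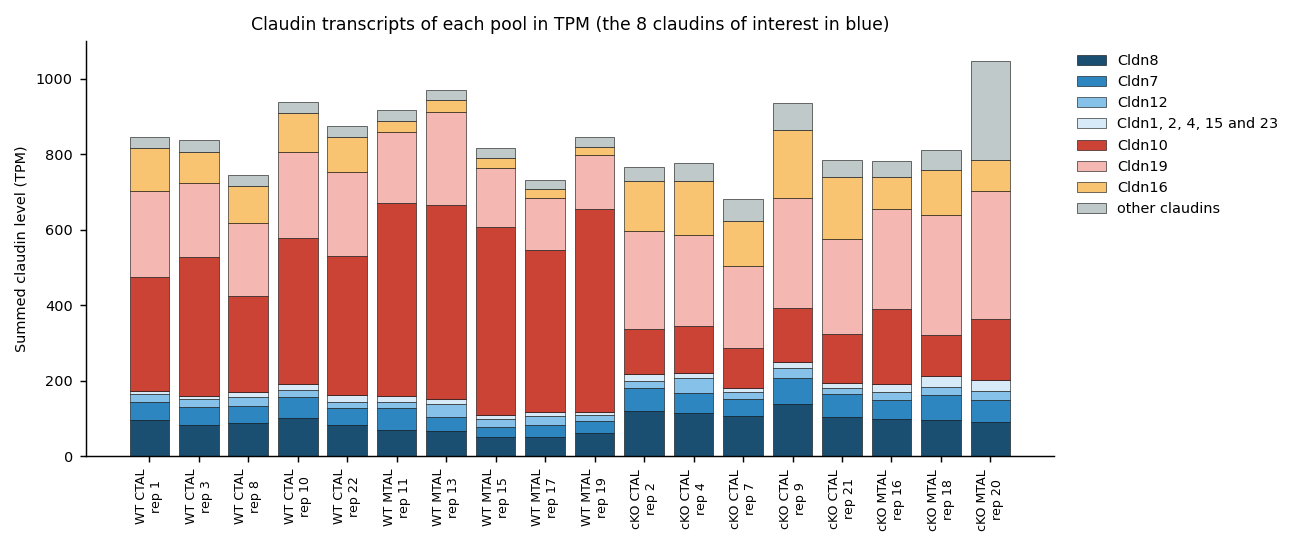
Summed level of all claudin genes in each pool in TPM, stacked by gene, with the 8 claudins considered here in blue tones. Cldn10 takes the largest section in the WT MTAL pools (430 to 538 TPM), and the blue section spans 110 to 160 TPM there and 181 to 250 TPM in cKO CTAL.

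The weight of the 8 genes among all 33 annotated claudins was taken from the TPM sums. They held 20.2 ± 1.66% (SD, n = 5) of the claudin transcripts of WT CTAL, 15.2 ± 1.61% (SD, n = 5) in WT MTAL, 27.0 ± 1.59% (SD, n = 5) in cKO CTAL and 23.3 ± 3.62% (SD, n = 3) in cKO MTAL. The cKO pools were above all WT pools of their segment in this share. With *Cldn10* left out of the sum, however, the shares were 33.4 ± 1.45%, 36.7 ± 2.86%, 31.97 ± 1.80% and 28.6 ± 5.27% in the same order, so that the means were lower in cKO. In CTAL the ranges overlapped (31.8 to 34.8% in WT, 29.5 to 33.9% in cKO). In MTAL the cKO pools (22.7 to 32.87%) lay just below the WT pools (32.99 to 39.4%). The lowest was replicate 20, whose sum held 222 TPM of *Cldn14*. The 8 genes summed to 171 ± 13.1 TPM in WT CTAL, 131 ± 22.8 TPM in WT MTAL, 213 ± 27.0 TPM in cKO CTAL and 202 ± 9.86 TPM in cKO MTAL. *Cldn8* with *Cldn7* made up from 69.2% to 84.8% of this sum in a pool. The 5 low genes together had 8.48 to 16.2 TPM in WT MTAL and 22.9 to 28.4 TPM in cKO MTAL, without overlap, and 7.78 to 17.2 TPM in WT CTAL against 10.7 to 17.5 TPM in cKO CTAL. Between the scales, the ratio of TPM to CPM of a gene varied over the pools by 2.30 times for *Cldn2*, 2.07 times for *Cldn12* and 1.92 times for *Cldn7*, and by at most 1.51 times for the others.

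**Figure D4:**
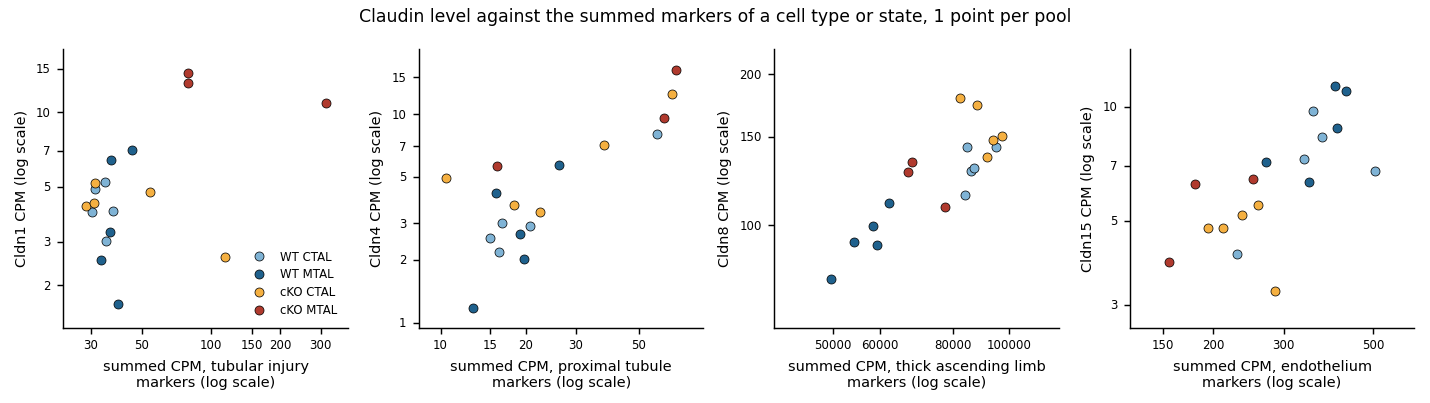
Level of 4 claudin genes against the summed level of a marker list, both in CPM on log axes, with 1 point per pool coloured by group. The pools with the highest Cldn4 of each group are those with the highest proximal tubule sum. The cKO pools have Cldn15 of 3.26 to 6.43 CPM and endothelial sums of 155 to 285 CPM, and the pool with the lowest Cldn15 has the highest of these sums.

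Of a list of 16 other claudins, 15 were in the tables and 6 were tested between cKO MTAL and WT MTAL, of which 4 passed the adjusted p, against 7.01% of all genes. *Cldn10*, the deleted gene, fell by 1.75 on the log2 scale, in pools that had been kept for their low *Cldn10*. *Cldn16* (1.73), *Cldn14* (4.81 ± 0.63, SE), whose protein blocks the claudin-16 pore, and *Cldn19* (0.64) rose. *Cldn14* was at 17.6 to 150 CPM in cKO MTAL (median 19.2 CPM) against 1.35 to 5.02 CPM in WT MTAL. Its highest value was in replicate 20 (222 TPM), with 18.7 and 21.9 TPM in the other cKO MTAL pools. In CTAL 3 of 5 passed, which were *Cldn10* (−1.55), *Cldn16* (0.49) and *Cldn14* (2.57), against 1.22% of all genes tested. In WT MTAL *Cldn10* was higher than in WT CTAL (0.59, adjusted p = 0.00231, edgeR quasi-likelihood test) and *Cldn16* was lower (−1.88, adjusted p = 5.27e-08). *Cldn16* was also lower in cKO MTAL than in cKO CTAL (−0.62, adjusted p = 0.0398). Its genotype effect was larger in MTAL by 1.23 (adjusted p = 0.00121). Of 13 genes of tight junction partners, all tested, 1 passed in MTAL between genotypes, a share near the 7.01% of all genes. It was *F11r*, which encodes the junctional adhesion molecule JAM-A and rose by 0.77 (adjusted p = 0.0315, edgeR quasi-likelihood test). None of the 13 passed in CTAL. Between the WT segments the tricellular junction gene *Marveld2* was higher in MTAL (log2 fold change 0.57, adjusted p = 0.0100), and *F11r* (−0.42, adjusted p = 0.0389) and the scaffold gene *Tjp3* (−1.04, adjusted p = 0.000433) were lower. Of 8 claudin regulators, none passed between genotypes in either segment. *Klhl3*, whose product marks claudin-8 for degradation, was lower in WT MTAL than in WT CTAL (log2 fold change −0.64, adjusted p = 0.000682).

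The genes most like each claudin over the pools were taken by Pearson's r of log2(CPM + 1) over the 18 pools, which includes the differences between the groups and is given as a description. *Cldn8* was most like *Emb* (r = 0.934), *Ppib* (r = 0.923) and *Sulf2* (r = 0.914). *Emb*, which encodes the membrane glycoprotein embigin, had medians of 187, 99.3, 231 and 169 CPM in WT CTAL, WT MTAL, cKO CTAL and cKO MTAL, the order of the *Cldn8* medians on the CPM scale (130, 92.7, 150 and 127 CPM). *Cldn1* was most like *Hmga2* (r = 0.914), a chromatin protein gene whose median was 4.87 CPM in cKO MTAL and between 1.83 and 2.58 CPM elsewhere. For *Cldn4* the closest gene was *Pter* (r = 0.905), for *Cldn7* *Txndc5* (r = 0.866), for *Cldn2* *Gpr137b* (r = 0.819) and for *Cldn12* *Amigo2* (r = 0.811). *Cldn15* was most like *Mmrn2* (r = 0.896), *Ets1* (r = 0.880) and *Lmo2* (r = 0.848), and *Mmrn2* encodes a matrix protein of endothelium. Its medians were 21.3 CPM in both WT groups, 10.1 CPM in cKO CTAL and 14.0 CPM in cKO MTAL.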

How the data were processed

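RNA was sequenced from pools of microdissected tubules as strand-specific poly-A libraries. Reads were trimmed by the authors (fastp in the methods, Trimmomatic in the labels) and mapped and quantified with DRAGEN on mm10 and gencode genes. The authors deposited estimated counts without normalization, which were rounded for the tests. The TPM values deposited by the authors are corrected for transcript length and depth. Whether counting used the strand is not given in the sources used here.

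Genes reaching 3 CPM in 5 or more pools (3 or more where cKO MTAL entered) were normalized with TMM factors and tested by edgeR's quasi-likelihood method (edgeR version 4.0.16 under R version 4.3.3) on the pools of the groups compared. P-values were Benjamini-Hochberg adjusted over all genes tested. The difference between the genotype effects was tested as an interaction in 1 fit of 18 pools. CPM values of single genes use TMM library sizes over the 18 pools and were compared by two-sided exact Mann-Whitney tests without adjustment. Alternatives used DESeq2 (version 1.42.0) and limma (version 3.58.1). P-values measure the spread between pools of distinct animals.

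All 8 claudins were described in every comparison. For each that was tested in the interaction fit, the genes with the highest Pearson's r were named, and of the lists of other claudins, junction partners and regulators those that passed. The rule for the 8 genes holds no measured level, but genes, lists and motifs were all chosen with earlier results of these data known. The study excluded 3 pools, which were not analysed here, among them a cKO CTAL pool with a *Cldn10* level like that of WT CTAL. The scripts were tested on simulated data.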

Additional observations from a re-analysis of the deposited data

Results flagged for a closer look

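In WT CTAL the level of *Cldn4* in replicate 22 was 7.98 CPM, far from the other pools of its group, of which the next had 3.02 CPM (group median 2.90 CPM). The gap took 0.856 of the whole range. It was the only such pool among 24 sets of a gene and a group of 5 pools, and chance flags about 1 in 20. The same pool had the highest proximal tubule sum of its group (57.9 CPM, against 14.97 to 20.7 CPM), and the part of this in the level of *Cldn4* was not tested.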

How the results depend on the processing

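In the fits that left out each pool in turn, the number of these claudins differentially expressed between cKO MTAL and WT MTAL ranged from 0 to 2. It was 0 without WT MTAL replicate 17 or 19 or cKO MTAL replicate 20. In these fits the log2 fold change of *Cldn1* lay between 1.45 and 1.92 and that of *Cldn4* between 1.36 and 2.12. The number was 1 with limma on log2(TPM + 1) and 0 on log2(TPM + 0.1), and 1 in the fit with the *Xist* term, an alternative chosen after seeing the data. Between cKO MTAL and cKO CTAL it fell from 1 to 0 on log2(TPM + 0.1), and for the difference between the genotype effects it was 1 in edgeR's likelihood ratio test. The cause of these changes was not tested. In the Mann-Whitney tests, TPM in place of CPM brought *Cldn4* and *Cldn8* in MTAL to an exact p of 0.0357, with medians higher by 5.42 and 36.1 TPM in cKO pools. Leaving *Cldn10* out of the claudin sum moved the share of the 8 genes to 33.4%, 36.7%, 31.97% and 28.6% in WT CTAL, WT MTAL, cKO CTAL and cKO MTAL.

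Estimates near 0, none of which passed the test, changed sign. With limma on log2(TPM + 1) and log2(TPM + 0.1), *Cldn12* was 0.045 and 0.048 in MTAL between genotypes, 0.17 and 0.18 in CTAL and −0.019 and −0.018 between the cKO segments, and *Cldn1* was 0.081 and 0.11 in CTAL. The difference between the genotype effects was 0.00028 for *Cldn12* with DESeq2's size factors, and for *Cldn15* it was 0.023 on log2(TPM + 1) and 0.13 with the *Xist* term, with which *Cldn1* was 0.22 between the WT segments. With 1 pool left out, *Cldn12* ranged from −0.095 to 0.062 in MTAL and from −0.094 to 0.023 in CTAL, *Cldn1* from −0.12 to 0.11 in CTAL and from −0.28 to 0.18 between the WT segments, and *Cldn7* from −0.27 to 0.089 between the cKO segments. The difference between the genotype effects then ranged from −0.067 to 0.080 for *Cldn12* and from −0.13 to 0.20 for *Cldn15*. Counting WT CTAL replicate 1 as cKO CTAL changed none of these counts of claudins.

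Over all genes, the number differentially expressed between cKO MTAL and WT MTAL (451) ranged from 222 with limma on log2(TPM + 0.1) to 882 in 1 fit of all 18 pools. With limma on log2(TPM + 1) 200 of 224 were higher in cKO MTAL, against 325 of 451. Between the cKO segments the number (113) ranged from 54 on log2(TPM + 0.1) to 515 without cKO MTAL replicate 18, and for the difference between the genotype effects (29) from 7 with limma to 423 without that replicate. No paired analysis was done, because the groups compared share no replicate numbers. The *Cldn1*, *Cldn2*, *Cldn4* and *Cldn15* levels rest on 14 to 664 counts per pool, and the 3 pools of cKO MTAL limit every comparison with that group.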
